A study of Mus musculus with 79 samples.

Results

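Collagens are the fibrous and network proteins of the extracellular matrix. The genes examined were the 41 whose symbol in the deposited array table was that of a collagen chain (Col, a type number, the letter a and a chain number), out of 22335 gene symbols in all. They were found on 44 of 35556 probesets, a probeset being the set of array probes that reports one transcript. For the 3 genes with several probesets, Col5a1, Col5a2 and Col6a6, the brightest probeset by its mean was used.

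RNA of quadriceps, the large thigh muscle, was measured on 79 Affymetrix arrays of male BXD mice, inbred strains bred from a cross of C57BL/6J with DBA/2J, and of both parental strains. The chow diet group (CD, Harlan 2018) held 42 arrays and the high fat diet group (HFD, Harlan 06414) held 37. Each array was an even RNA pool of about 5 animals of one strain, so an array carries the mean of its pool and the spread between arrays holds the spread between strains and that of the array work. High fat feeding began at 8 weeks of age, and all mice were killed at 29 weeks after an overnight fast. The sample titles place the arrays in 2 batches. Both diets were available for 37 strains, and 5 strains had CD alone. Each strain had 1 array per diet.

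Values are scores that were scaled to the same mean, 8, and the same SD, 2, on each array. The score behaves as a logarithm of signal, but its base was not given in the sources used here, so differences are printed in score units and folds, calculated as if a unit were a doubling, are called nominal. Of the 41 collagen genes, 34 had a mean above the median probeset mean of 7.86 and are called bright, and 7 (Col4a5, Col4a6, Col6a4, Col9a1, Col10a1, Col19a1 and Col28a1) lay below it and are called dim. The muscle label was borne out by 8 myofibre genes (Acta1, Ckm, Mb, Myh1, Myh2, Myh4, Ttn and Actn3), whose mean lay between 14.3 and 14.8 on every array. Olfactory receptor genes, most of which are known mainly from the nose, were used as a gauge of array background. The mean of their 1154 probesets was 6.10 ± 0.053 (SD, n = 42) on CD arrays and 6.05 ± 0.046 (SD, n = 37) on HFD arrays, and values of single collagen genes are given below with this mean as a covariate where that ended or made a call.

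Collagen chains wind into a triple helix, and the gene that is expressed decides which structure is built. Fibrillar collagens (types I, II, III, V, XI, XXIV and XXVII) form the cables of the endomysium and perimysium, the connective sheets between muscle fibres and bundles. Type IV collagen forms the network of the basement membrane that wraps each myofibre and capillary, type VI forms beaded filaments that anchor that membrane to the surrounding matrix, and the FACIT collagens attach to the surface of fibrils. In muscle these chains are made mainly by fibroblasts and endothelial cells. In pooled tissue RNA, fewer cells of a type and less RNA per cell cannot be told apart.

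The first comparison asked which collagen chains changed with the diet. Of the 41 genes, 10 were higher in HFD, 13 were lower and 18 were not called (limma with diet and batch as terms over 79 arrays, Benjamini-Hochberg adjusted p below 0.05 over all probesets). Of all 35556 probesets tested, 18.9% were higher and 19.3% were lower, and of the collagen genes 24.4% and 31.7% were. Among the 34 bright collagen genes 9 were higher and 10 were lower, beside 17.9% and 13.4% of bright probesets. The changes were small: the collagen differences ran from a fall by 0.18 to a rise of 0.23 score units, with a median of -0.034 beside -0.000663 over all probesets. The ranges of the 2 diets overlapped for 41 of 41 genes, and the share over all probesets was not calculated. In batch 1 alone 3 were higher and 3 were lower, beside 5.82% and 6.81% of all probesets. In batch 2 alone the counts were 7 and 3, beside 12.2% and 12.2% of all probesets. Each of these fits had fewer arrays.

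By class the counts were as follows, and no test compared the classes. Among the 5 chains of type VI, 4 were higher and 1 was lower. Of the 6 basement membrane chains 2 were higher and 2 were lower, and of the 11 fibrillar chains 1 was higher, 3 were lower and 7 were not called. Of the 8 FACIT chains 2 were higher and 3 were lower, of the 3 short chain network collagens 1 was higher and 1 was lower, and of the 4 transmembrane collagens 2 were lower. Neither of the multiplexins, Col15a1 and Col18a1, nor the anchoring fibril chain Col7a1 was called, and Col28a1 was lower. Under the olfactory receptor covariate 0 lower genes were called among the fibrillar, type VI, FACIT and transmembrane chains and Col28a1, against 1 among the basement membrane chains and 1 among the short chain network collagens. The higher genes under it were 2 fibrillar, 1 basement membrane, 4 type VI, 1 FACIT and 0 short chain network chains, and over all probesets 16% were higher and 15% lower. Across 12 chains that assemble with each other or share a structure in adult muscle (Col1a1, Col1a2, Col3a1, Col4a1, Col4a2, Col5a1, Col5a2, Col6a1, Col6a2, Col6a3, Col15a1 and Col18a1, below the partner chains), 6 were higher and 0 were lower (0 at an unadjusted p below 0.05 too), beside 18.9% and 19.3% of all probesets. The list was chosen with earlier results known, and the counts depend on it: Col6a6, which was lower, is not among the 12. They depend on the probeset too, since Col5a1 is among the 6 and its other probeset fell by 0.22 (limma, adjusted p = 5.17e-06).

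**Figure D1:**
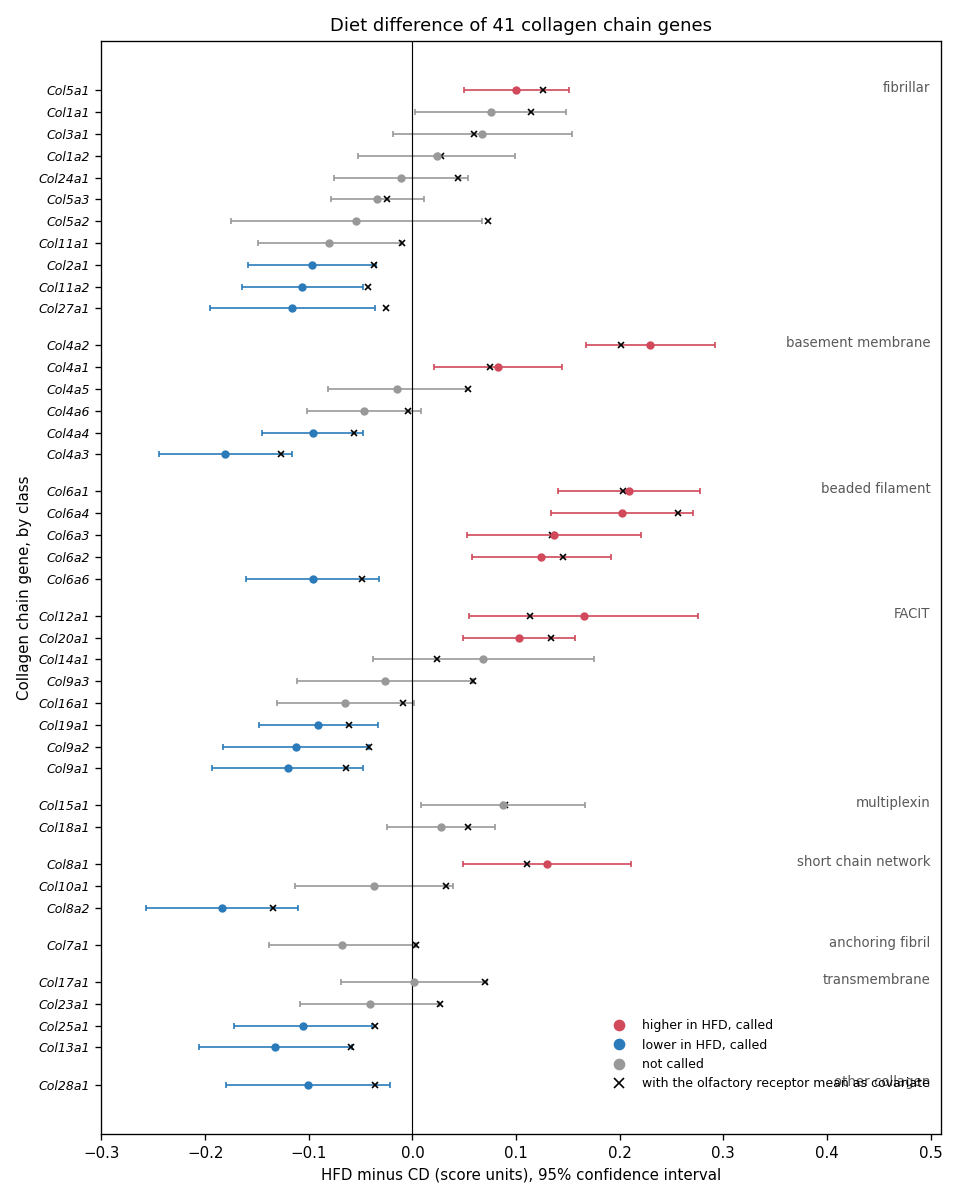
HFD minus CD in score units for each of the 41 collagen genes, grouped by class, with the 95% confidence interval of the limma fit as bars and red, blue and grey for higher, lower and not called. Crosses give the same difference with the olfactory receptor mean as a covariate: they stay near the points of Col4a2 and Col6a1 and lie closer to 0 than the points of most lower genes.

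The basement membrane chains Col4a1 and Col4a2 encode the α1 and α2 chains, which together form the type IV trimer found in the basement membranes of most tissues. Their genes lie head to head on chromosome 8. RefSeq promoter windows (build GRCm38.p6, 250 bases before to 50 bases after each annotated start) were given for 34 of the 41 genes. Those of the Col4a1 and Col4a2 pair are printed because the annotated starts are 21 bases apart on opposite strands and the same stretch of 78 bases, in capitals, stands in both windows, as reverse complements of each other.
Col4a1: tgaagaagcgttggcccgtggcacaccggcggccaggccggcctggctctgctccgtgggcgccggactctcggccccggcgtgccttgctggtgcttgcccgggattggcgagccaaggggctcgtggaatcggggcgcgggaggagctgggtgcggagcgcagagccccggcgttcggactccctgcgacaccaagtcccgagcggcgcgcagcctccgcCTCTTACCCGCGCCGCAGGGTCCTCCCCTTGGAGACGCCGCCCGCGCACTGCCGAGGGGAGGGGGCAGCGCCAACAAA
Col4a2: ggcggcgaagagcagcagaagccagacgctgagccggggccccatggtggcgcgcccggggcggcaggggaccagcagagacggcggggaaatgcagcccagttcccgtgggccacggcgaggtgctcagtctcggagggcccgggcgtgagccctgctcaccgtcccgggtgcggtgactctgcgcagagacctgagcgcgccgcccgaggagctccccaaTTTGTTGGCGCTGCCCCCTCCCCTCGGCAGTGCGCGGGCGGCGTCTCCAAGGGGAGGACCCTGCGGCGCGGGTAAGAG
The Col4a1 window is chr8:11312777-11313076 on the minus strand and the Col4a2 window is chr8:11312555-11312854 on the plus strand. The capitals mark the shared bases, which are bases 223 to 300 of each window.

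Col4a2 had the largest difference among the higher collagen genes in the fit with diet and batch, while with the olfactory receptor covariate Col6a4, at 0.256, and Col6a1, at 0.203, lay above its 0.201. In CD it ran from 8.79 over a median of 9.06 to 9.35, and in HFD from 8.89 over 9.30 to 9.53. HFD exceeded CD by 0.23 ± 0.031 (SE, limma, adjusted p = 4.75e-09), a nominal 1.17-fold, and the level was higher in HFD in 35 of 37 strains. Within batch 1 and batch 2 alone its differences were 0.234 and 0.226, so the rise was found in both. Its partner Col4a1 ran from 9.01 over 9.37 to 9.70 in CD and from 9.13 over 9.48 to 9.69 in HFD. The rise of Col4a1 was 0.083 ± 0.031 (SE, limma, adjusted p = 0.0281), with 30 of 37 strains higher. The arrays of the 2 diets overlapped over most of the Col4a1 range, and with the olfactory receptor mean as a covariate its rise of 0.075 was no longer called (limma, adjusted p = 0.087).

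The score of Col4a2 minus that of Col4a1 on the same array was -0.32 ± 0.11 on CD arrays (SD, n = 42) and -0.17 ± 0.090 on HFD arrays (SD, n = 37). Within strains it was larger in HFD by 0.14 ± 0.11 (SD, n = 37), in 35 of 37 strains (two-sided permutation test exchanging diets within strains, p = 1e-05, the smallest that 100000 draws can give). This difference was chosen for a test after the values of both genes had been seen.

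The α3 and α4 chains, known from the basement membranes of the kidney glomerulus and the inner ear, went the other way. Col4a3 ran from 7.76 over 8.14 to 8.48 in CD and from 7.57 over 7.97 to 8.17 in HFD. It fell by 0.18 ± 0.032 (SE, limma, adjusted p = 4.57e-06), and 8 of 37 strains were higher in HFD. Col4a4 fell by 0.096 ± 0.025 (SE, limma, adjusted p = 0.00111), with 10 of 37 strains higher. The X-linked chains Col4a5 and Col4a6, both dim, differed by -0.015 and -0.047 and were not called. With the olfactory receptor mean as a covariate Col4a3 stayed called at -0.13 (limma, adjusted p = 0.00158), and Col4a4, at -0.057, was not called.

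Type VI collagen, whose α1, α2 and α3 chains assemble into the microfibrils of the muscle matrix and whose mutations cause Bethlem and Ullrich muscle disease in humans, rose in all 3 of those chains. Col6a1 ran from 9.03 over 9.32 to 9.65 in CD and from 9.24 over 9.50 to 9.87 in HFD. Its rise was 0.21 ± 0.034 (SE, limma, adjusted p = 7.88e-07), a nominal 1.16-fold, with 33 of 37 strains higher. The ranges overlapped, with the lowest and the highest HFD arrays of Col6a1 both above those of CD. Col6a3 ran from 8.87 over 9.33 to 9.80 in CD and from 9.13 over 9.47 to 9.80 in HFD, a rise of 0.14 ± 0.042 (SE, limma, adjusted p = 0.00697). Col6a2 ran from 9.04 over 9.50 to 9.83 in CD and from 9.10 over 9.63 to 9.91 in HFD, a rise of 0.12 ± 0.034 (SE, limma, adjusted p = 0.00194). These 2 chains were higher in 30 and 29 of 37 strains.

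The other 2 type VI chains are encoded by separate genes that can take the place of α3. Col6a4 was dim, at 7.35 ± 0.13 on CD arrays (SD, n = 42) and 7.56 ± 0.17 on HFD arrays (SD, n = 37), and was higher by 0.20 ± 0.034 (SE, limma, adjusted p = 1.54e-06). Col6a6 fell by 0.096 ± 0.032 (SE, limma, adjusted p = 0.0132). The second Col6a6 probeset gave -0.079 (limma, adjusted p = 0.0273) but hardly followed the one used, with r = 0.198 across CD arrays and 0.0455 across HFD arrays. With strain as a replicate block Col6a6 was not called, nor with the olfactory receptor mean as a covariate, at -0.049 (limma, adjusted p = 0.275).

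**Figure D2:**
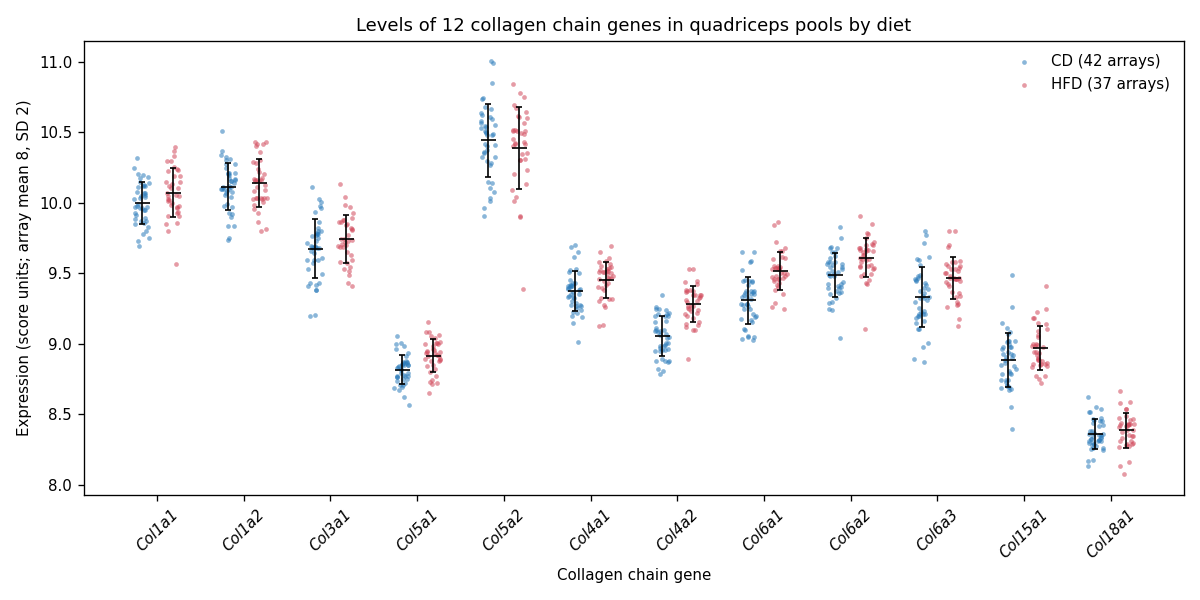
Score of 12 collagen chain genes on each CD array (blue) and HFD array (red), 1 point per strain pool, with mean and SD in black. The HFD means of Col4a2 and Col6a1 lie above the CD means by 0.23 and 0.21, while the points of both diets overlap for every gene shown.

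The fibrillar chains of the muscle sheets changed little. Col1a1, the α1 chain of type I collagen, the main fibril protein of tendon, bone and muscle connective tissue, ran from 9.69 over 9.98 to 10.31 in CD and from 9.57 over 10.05 to 10.40 in HFD. Its difference of 0.075 ± 0.036 (SE) was not called (limma, adjusted p = 0.0939), with 26 of 37 strains higher in HFD. With the olfactory receptor mean as a covariate it was 0.11 and was called (limma, adjusted p = 0.0182). Col1a2, the α2 chain of the same trimer, ran from 9.73 over 10.12 to 10.51 in CD and from 9.80 over 10.15 to 10.43 in HFD and differed by 0.023 ± 0.038 (SE, limma, adjusted p = 0.667).

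Type III collagen forms thinner fibrils with type I. Its gene Col3a1 ran from 9.19 over 9.68 to 10.11 in CD and from 9.41 over 9.73 to 10.13 in HFD, a difference of 0.068 ± 0.043 (SE, limma, adjusted p = 0.218). With strain as a replicate block the difference was 0.085 and was called (limma, adjusted p = 0.0394). Fibrils of types I and III are started by type V collagen, and its α1 chain Col5a1 was the 1 fibrillar chain that rose, from 8.82 ± 0.10 (SD, n = 42) to 8.92 ± 0.12 (SD, n = 37), by 0.10 ± 0.025 (SE, limma, adjusted p = 0.000985). The direction for Col5a1 depends on the probeset, since its other probeset fell by 0.22 ± 0.040 (SE, limma, adjusted p = 5.17e-06) and the mean of both gave -0.061 (limma, adjusted p = 0.0966). The α2 chain Col5a2 was at 10.44 ± 0.26 (SD, n = 42) in CD, with a median of 10.48, and ran from 9.39 over 10.43 to 10.84 in HFD, and it differed by -0.054 ± 0.061 (SE, limma, adjusted p = 0.512). The Col5a2 probesets did not follow each other, with r = -0.035 across CD arrays and 0.133 across HFD arrays, so Col5a2 is uncertain.

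Several other fibrillar chains are known mainly from cartilage and bone. Col2a1, the main collagen of cartilage, fell by 0.097 ± 0.031 (SE, limma, adjusted p = 0.00962), Col11a2, a chain of the cartilage type XI fibril, fell by 0.11 ± 0.029 (SE, limma, adjusted p = 0.00246), and Col27a1, a fibrillar chain of developing cartilage, fell by 0.12 ± 0.040 (SE, limma, adjusted p = 0.0159). These 3 calls were lost with the olfactory receptor mean as a covariate, at -0.037, -0.043 and -0.026 (limma, adjusted p = 0.381, 0.237 and 0.637). Col11a1, Col24a1 and Col5a3 gave -0.080, -0.011 and -0.034 and were not called. Across 8 fixed cartilage and bone genes, 0 were higher and 3 were lower, beside 18.9% and 19.3% of all probesets, and Acan, Chad and Matn3 lay above 0, at 0.081, 0.066 and 0.053, without being called. The lower ones were Sost at -0.093, Ibsp at -0.17 and Matn1, a cartilage matrix protein, at -0.31 (limma, adjusted p = 0.0217, 0.00149 and 1.61e-10). Matn1 had a mean of 6.74 over all arrays. The part of cartilage or bone RNA in these differences was not tested.

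Of the fibril-associated FACIT collagens, Col12a1, which is found where force is passed on in tendon and muscle, ran from 7.49 over 8.23 to 8.66 in CD and from 7.81 over 8.36 to 8.98 in HFD. Its rise was 0.17 ± 0.056 (SE, limma, adjusted p = 0.0135), with 26 of 37 strains higher, and with the olfactory receptor mean as a covariate it was 0.11 and was not called (limma, adjusted p = 0.144). Col20a1 rose by 0.10 ± 0.027 (SE, limma, adjusted p = 0.00155). Col14a1, which binds the surface of type I fibrils, differed by 0.068 ± 0.054 (SE, limma, adjusted p = 0.327), and with strain as a replicate block by 0.096, which was called (limma, adjusted p = 0.0282). Col9a1 and Col9a2, chains of the cartilage type IX collagen, and Col19a1, a chain of basement membrane zones, fell, with differences of -0.12, -0.11 and -0.091 (limma, adjusted p = 0.00584, 0.00813 and 0.00859). All 3 calls were lost with the olfactory receptor mean as a covariate, at -0.064, -0.041 and -0.061 (limma, adjusted p = 0.190, 0.375 and 0.126). The third type IX chain, Col9a3, and Col16a1 gave -0.026 and -0.065 and were not called.

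Of the network collagens with short chains, Col8a1, known from vessel walls, ran from 8.04 over 8.53 to 9.04 in CD and from 8.27 over 8.73 to 8.91 in HFD. It rose by 0.13 ± 0.041 (SE, limma, adjusted p = 0.00824), with 30 of 37 strains higher and overlapping ranges. Its partner Col8a2, known from the cornea and its endothelium, fell by 0.18 ± 0.037 (SE, limma, adjusted p = 3.9e-05), with 6 of 37 strains higher in HFD. Col8a2 ran from 7.33 over 8.04 to 8.25 in CD and from 7.28 over 7.83 to 8.15 in HFD. The ranges overlapped, with the lowest and the highest HFD arrays both below those of CD. With the olfactory receptor mean as a covariate Col8a2 stayed called at -0.13 (limma, adjusted p = 0.00486), and Col8a1, at 0.11, narrowly missed the threshold (limma, adjusted p = 0.0526). Col10a1, the collagen of hypertrophic cartilage, gave -0.037 and was not called.

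The transmembrane collagens stay in the membrane of the cell that makes them. Col13a1, which is needed for the maturation of the neuromuscular junction, fell by 0.13 ± 0.037 (SE, limma, adjusted p = 0.00286), and Col25a1, which developing muscle needs to be reached by motor axons, fell by 0.11 ± 0.033 (SE, limma, adjusted p = 0.00833). Col28a1, known from peripheral nerve, fell by 0.10 ± 0.040 (SE, limma, adjusted p = 0.0368). That call was kept in 6 of 13 alternative fits and was lost, among others, without strain BXD79 and with strain as a replicate block. Col13a1, Col25a1 and Col28a1 were at -0.059, -0.036 and -0.036 with the olfactory receptor mean as a covariate and were not called (limma, adjusted p = 0.215, 0.415 and 0.536). Col17a1, the hemidesmosome collagen of skin, and Col23a1 gave 0.0016 and -0.041.

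The multiplexins Col15a1 and Col18a1 sit at the outer face of basement membranes, and Col18a1 is the source of the vessel inhibitor endostatin. Col15a1 ran from 8.39 over 8.89 to 9.49 in CD and from 8.72 over 8.94 to 9.41 in HFD, and Col18a1 from 8.14 over 8.34 to 8.62 in CD and from 8.07 over 8.41 to 8.66 in HFD. The Col15a1 range reached further in CD at both ends, and the Col18a1 ranges overlapped over most of their length. Their differences of 0.087 ± 0.040 and 0.028 ± 0.026 were not called (SE, limma, adjusted p = 0.0745 and 0.428). Col15a1 was called with strain as a replicate block, at 0.098 (limma, adjusted p = 0.0127).

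Many collagen genes followed the array background, the lower ones among them. For the 13 lower genes the correlation with the olfactory receptor mean across strains had a median of 0.381 in CD and 0.521 in HFD, and the lowest values were 0.213 and 0.261. For the 10 higher genes the medians were -0.011 and 0.092 and the highest values were 0.384 and 0.484, so the r values of higher and lower genes overlapped. Genes that were not called reached like values, with Col4a5 at 0.543 and 0.4805 and Col7a1 at 0.436 and 0.579. With that mean as a covariate 2 of the 13 lower genes were called, Col4a3 and Col8a2, while 7 of the 10 higher genes were called and Col1a1 was added, which made 8 higher and 2 lower. Over all probesets the same covariate left 16% higher and 15% lower. The olfactory receptor mean was itself lower in HFD, as given above, and its part in the lower calls was not tested.

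Markers of other cells were counted in the same way, beside 18.9% higher and 19.3% lower over all probesets. Adipocyte genes were higher in 7 and lower in 2 of 14, with Lep, the hormone of fat cells, at 1.58. The 2 lower ones were Cfd at -0.61 and Slc2a4 at -0.14. The adipocyte list mean lay between 9.59 and 10.84 in CD and between 9.64 and 10.98 in HFD. Endothelial genes were higher in 5 and lower in 0 of 10, with a list mean between 9.55 and 10.25 in CD and between 9.84 and 10.37 in HFD, and Emcn, an endothelial sialomucin, at 0.28. Macrophage genes were higher in 6 and lower in 0 of 9 measured, with a list mean between 7.85 and 8.60 in CD and between 8.04 and 9.03 in HFD. Fibroblast genes were higher in 2 and lower in 1 of 12, with a list mean between 10.1 and 10.8 in both diets. Schwann cell genes were higher in 3 and lower in 1 of 6, tendon genes in 2 and 2 of 7, and myofibre genes in 1 and 0 of 8. Their part in the collagen differences was not tested.

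Of 32 measured enzymes, chaperones and binding proteins that modify, fold and cross-link collagen, 11 were higher, 5 were lower and 16 were not called, with a median of 0.033, beside 18.9% higher and 19.3% lower over all probesets. Sparc, a collagen-binding matrix protein, rose by 0.30 ± 0.054 (SE, limma, adjusted p = 5.88e-06), from 12.9 to 13.2. Crtap, a part of the complex that hydroxylates prolines in the helix, rose by 0.27 ± 0.039 (SE, limma, adjusted p = 3.12e-08), and the cross-linking enzyme Lox by 0.18 ± 0.072 (SE, limma, adjusted p = 0.0471). P4ha3, an isoform of the prolyl hydroxylase that stabilises the helix, fell by 0.23 ± 0.041 (SE, limma, adjusted p = 6.04e-06). Of 9 collagen receptors, 5 were higher and 2 were lower. Itgb1, the β subunit shared by the collagen-binding integrins, rose by 0.16 and the collagen receptor kinase Ddr2 by 0.12, while Lair1, an inhibitory receptor of leukocytes, fell by 0.17.

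The second question was which collagen genes rise and fall together across strains. After batch means were removed within each diet, the median r over the 820 pairs of collagen genes was 0.394 in CD and 0.479 in HFD, beside 0 and -0.001 over pairs of all probesets. An r of at least 0.5 was reached by 290 pairs (35.4%) in CD and 393 pairs (47.9%) in HFD, while 0.883% and 2.36% of pairs of all probesets reached it. These r values describe pairs that share arrays and carry no test of their own.

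Among 20 pairs of chains that share a trimer, a fibril or a class, taken in each diet, most chains that form one protein followed each other. Col1a1 and Col1a2 gave r = 0.805 in CD and 0.813 in HFD (rho 0.787 and 0.820). Within single batches the Col1a1 and Col1a2 values lay between 0.743 and 0.853, and without the 2 strains farthest from the Col1a1 median they were 0.771 and 0.770. Col6a1 and Col6a3 gave 0.831 and 0.716 (rho 0.809 and 0.730), and Col4a1 and Col4a2 gave 0.718 and 0.754 (rho 0.725 and 0.746). For Col4a1 and Col4a2, batch 1 and batch 2 gave 0.764 and 0.651 in CD and 0.904 and 0.528 in HFD. These 6 values had a permutation p of 1e-05 each for r, the smallest that 100000 draws can give (two-sided, adjusted p = 2.11e-05 over the 40 relations computed), and rho had an adjusted permutation p of 2.5e-05.

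Chains of the cartilage collagens were also paired. Col9a2 and Col9a3 gave r = 0.822 in CD and 0.840 in HFD (rho 0.775 and 0.751), and Col11a1 and Col11a2 gave 0.711 and 0.693 (rho 0.774 and 0.640). Within batch 1 and batch 2 the Col11a1 and Col11a2 values were 0.653 and 0.771 in CD and 0.294 and 0.790 in HFD. The Col4a3 and Col4a4 chains, which share a trimer, gave 0.649 and 0.615 (rho 0.698 and 0.633), and Col4a5 and Col4a6, which are neighbours on the X chromosome, gave 0.568 and 0.628 (rho 0.501 and 0.535). Adjusted permutation p-values of these r values ran from 2.11e-05 to 0.000163. Without the 2 farthest strains the Col4a5 and Col4a6 values were 0.425 and 0.496, the lowest among these 4 pairs.

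Some pairs did not follow each other. Col8a1 and Col8a2 gave r = -0.026 in CD and 0.048 in HFD (rho 0.060 and 0.111), with adjusted permutation p = 0.870 and 0.815. Col3a1 and Col5a2 gave -0.153 and 0.044, and Col5a1 and Col5a2 gave 0.261 and 0.320 (adjusted permutation p = 0.104 and 0.0611). The Col5a2 values rest on a probeset whose sister did not follow it, as given above. Col15a1 and Col18a1 lay between these pairs and those above, at 0.343 and 0.378 (adjusted permutation p = 0.0307 and 0.0254), with rho 0.348 and 0.261 (adjusted permutation p = 0.0285 and 0.129). Within batch 1 and batch 2 they gave 0.445 and 0.180 in CD and 0.520 and 0.158 in HFD.

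**Figure D3:**
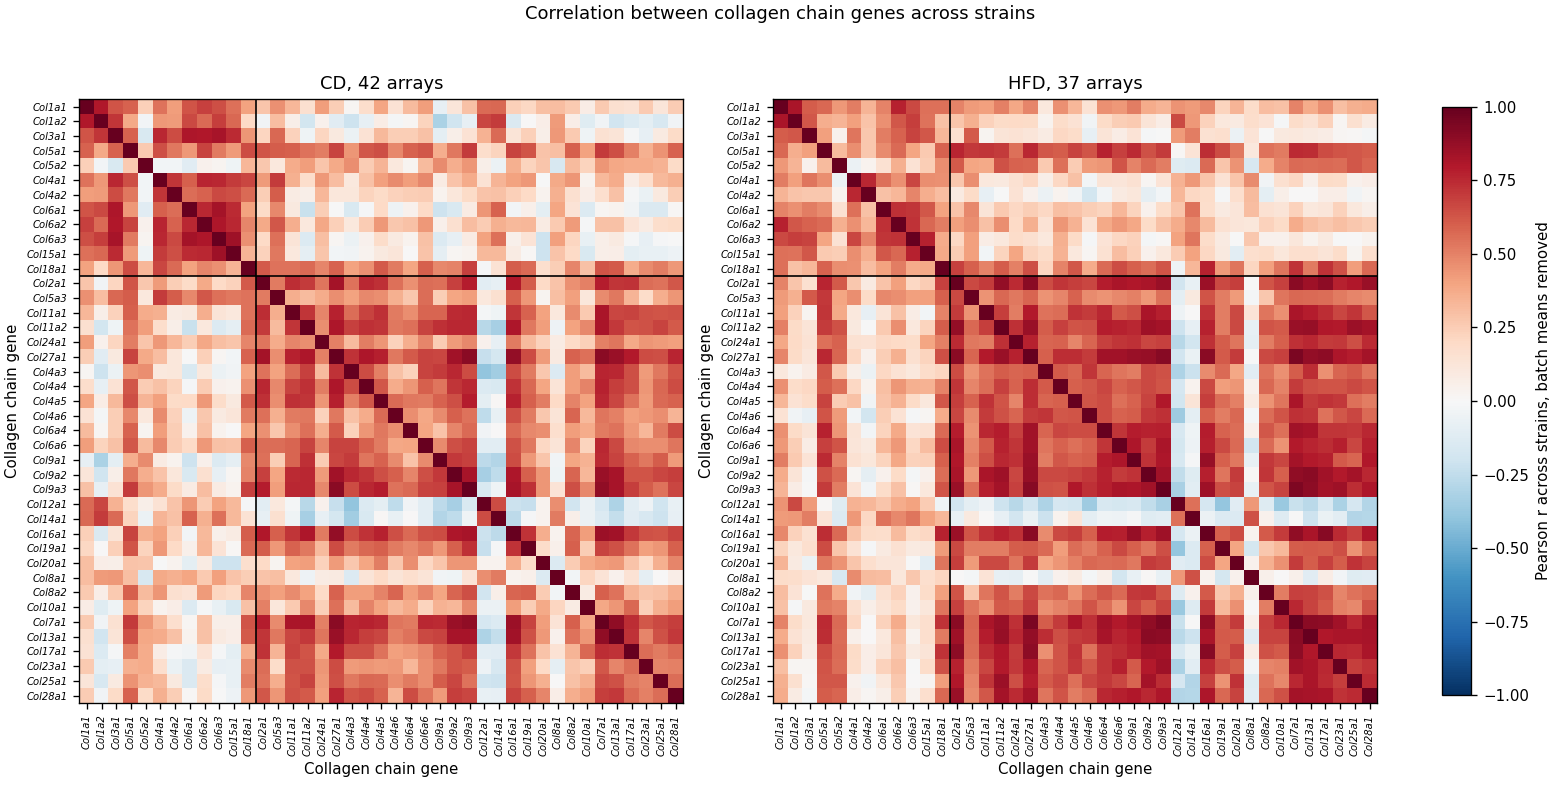
Pearson r between the 41 collagen genes across 42 CD arrays (left) and 37 HFD arrays (right), after batch means were removed, with the 12 partner chains above and left of the black lines and the other 29 chains below and right. A red field lies within each group, with Col5a2 a pale line in the first group in CD and Col12a1, Col14a1 and Col8a1 pale or blue lines in the second, while Col5a1 and Col18a1 are mostly red across both groups.

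Correlations were higher within than between the 2 groups of chains. The 12 partner chains had a median r of 0.591 among themselves in CD and 0.467 in HFD, the other 29 chains had 0.498 and 0.629, and the median between the groups was 0.229 and 0.225. Within the second group the closest pair in HFD was Col7a1, the anchoring fibril collagen of skin, with Col27a1, at 0.944 (0.903 in CD). Single genes went against this grouping. Among the partner chains, Col5a2 gave -0.0298 with Col1a2 and 0.475 with Col9a1 in CD, and 0.338 with Col1a2 and 0.637 with Col11a2 in HFD. Among the other 29, Col12a1 gave -0.227 with Col27a1 and 0.670 with Col1a2 in CD, and -0.194 and 0.657 in HFD. Col14a1 gave 0.703 with Col1a2 in CD and 0.434 in HFD, and 0.651 and 0.553 with Col12a1.

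The values for the array background were as follows in the 2 groups. The r with the olfactory receptor mean had a median of -0.011 in CD and 0.186 in HFD over the partner chains, and 0.386 and 0.484 over the other 29. With that mean removed, the median r within the partner chains was 0.620 and 0.494, and within the other 29 it was 0.427 and 0.542. Without strain BXD79 the medians of the other 29 were 0.501 and 0.582. The HFD array of strain BXD79 was the lowest HFD array for 19 of the 41 genes and had the lowest olfactory receptor mean of that diet, 5.92.

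Slopes on Col1a1 fitted over all other probesets asked which chains rise with type I collagen. In CD, 5 collagen genes rose with Col1a1 (0.0338% of all 35555 other probesets rose), and these were Col1a2, Col3a1, Col6a1, Col6a2 and Col6a3. The slope of Col1a2 was 0.91 ± 0.11 score units per unit of Col1a1 (SE, limma, adjusted p = 1.52e-05) and that of Col6a2 was 0.71 ± 0.12 (SE, limma, adjusted p = 0.00965). Without the 2 strains farthest from the Col1a1 median 1 gene was called, although the r of Col1a1 was still 0.771 with Col1a2 and 0.551 with Col3a1. With the fibroblast gene mean as a covariate 1 gene was called (0.00563% of all other probesets), and with the olfactory receptor mean 8 (0.186%).

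In HFD 15 collagen genes rose with Col1a1 (5.05% of all other probesets rose). These were the 5 of CD together with Col4a1, Col5a1, Col15a1 and Col18a1 of the partner chains and Col2a1, Col7a1, Col9a1, Col11a2, Col16a1 and Col27a1. Col1a2 had a slope of 0.80 ± 0.10 (SE, limma, adjusted p = 0.000132) and Col6a2 of 0.62 ± 0.096 (SE, limma, adjusted p = 0.00181). With the olfactory receptor mean as a covariate 4 were left (0.177% of all other probesets), and with the fibroblast gene mean 29 rose (15.3%). The difference between the diets in the slope on Col1a1 was itself tested, and 0 of 40 collagen genes were called (limma, 1 at an unadjusted p below 0.05, and 0% of all other probesets called).

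With Col4a1, 10 collagen genes rose in CD (0.447% of all other probesets rose): Col4a2, Col1a1, Col3a1, Col5a1, Col5a3, Col6a1, Col6a2, Col6a3, Col15a1 and Col18a1. The slope of Col6a3 was 1.15 ± 0.16 and that of Col3a1 was 1.11 ± 0.16 (SE, limma, adjusted p = 0.000102 each). In HFD 1 gene, Col4a2, rose with Col4a1, with a slope of 0.76 ± 0.13 (SE, limma, adjusted p = 0.00996), where 0.0113% of all other probesets rose. That call was lost without strain BXD63 and without the 2 strains farthest from the Col4a1 median. The slope on Col4a1 differed between the diets for 0 of 40 collagen genes (limma, 2 at an unadjusted p below 0.05, and 0% of all other probesets called).

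Outside the collagen genes, the 5 genes most like Col1a1, by the lower of the 2 diets' r, were Sparc with 0.673 in CD and 0.756 in HFD, Ptgis with 0.726 and 0.588, Itga2 with 0.560 and 0.577, Thy1 with 0.541 and 0.595, and Glis2 with 0.534 and 0.621. Itga2 is a collagen-binding integrin subunit, Thy1 a surface protein of fibroblasts, and Ptgis the prostacyclin synthase. Of the marker list means, that of fibroblast genes had r = 0.440 with Col1a1 in CD and 0.302 in HFD, that of tendon genes 0.450 and 0.460, that of myofibre genes 0.438 and 0.380, that of Schwann cell genes 0.425 and 0.418, and that of cartilage and bone genes 0.353 and 0.494. The adipocyte, macrophage and endothelial means gave 0.128, 0.304 and 0.0896 in CD and 0.270, 0.143 and -0.162 in HFD. With Col4a1 the tendon mean had -0.145 in CD and 0.00519 in HFD, and the cartilage and bone mean -0.0257 and 0.133. The fibroblast mean gave 0.280 and 0.318 with Col4a1, the myofibre mean 0.172 and 0.205, and the Schwann cell mean 0.143 and 0.421. Adipocyte, macrophage and endothelial means gave 0.355, 0.272 and 0.155 with Col4a1 in CD and 0.272, 0.361 and 0.284 in HFD.

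The third question was how far strains differ, and whether they differ alike on both diets. The span from the lowest to the highest strain had a median nominal fold of 1.54 in CD and 1.60 in HFD over the collagen genes, beside 1.64 and 1.70 over all probesets and 1.56 and 1.63 over bright probesets. From the 10th to the 90th percentile of strains the medians were 1.27 and 1.29. In CD the widest were Col12a1 (nominal 2.25-fold, from 7.49 in BXD81 to 8.66 in BXD84), Col15a1 (2.14-fold, from 8.39 in BXD43 to 9.49 in BXD65), Col5a2 (2.14-fold), Col14a1 (2.09-fold) and Col8a1 (2.00-fold). In HFD they were Col5a2 (2.74-fold, from 9.39 in BXD69 to 10.84 in BXD103), Col12a1 (2.25-fold), Col9a3 (2.06-fold), Col28a1 (2.01-fold) and Col9a1 (1.97-fold). The Col5a2 span rests on 1 array, since the next lowest HFD value was 9.901, and from the 10th to the 90th percentile its fold was 1.57. The lowest HFD array of Col9a3, Col28a1 and Col9a1 was that of BXD79.

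**Figure D4:**
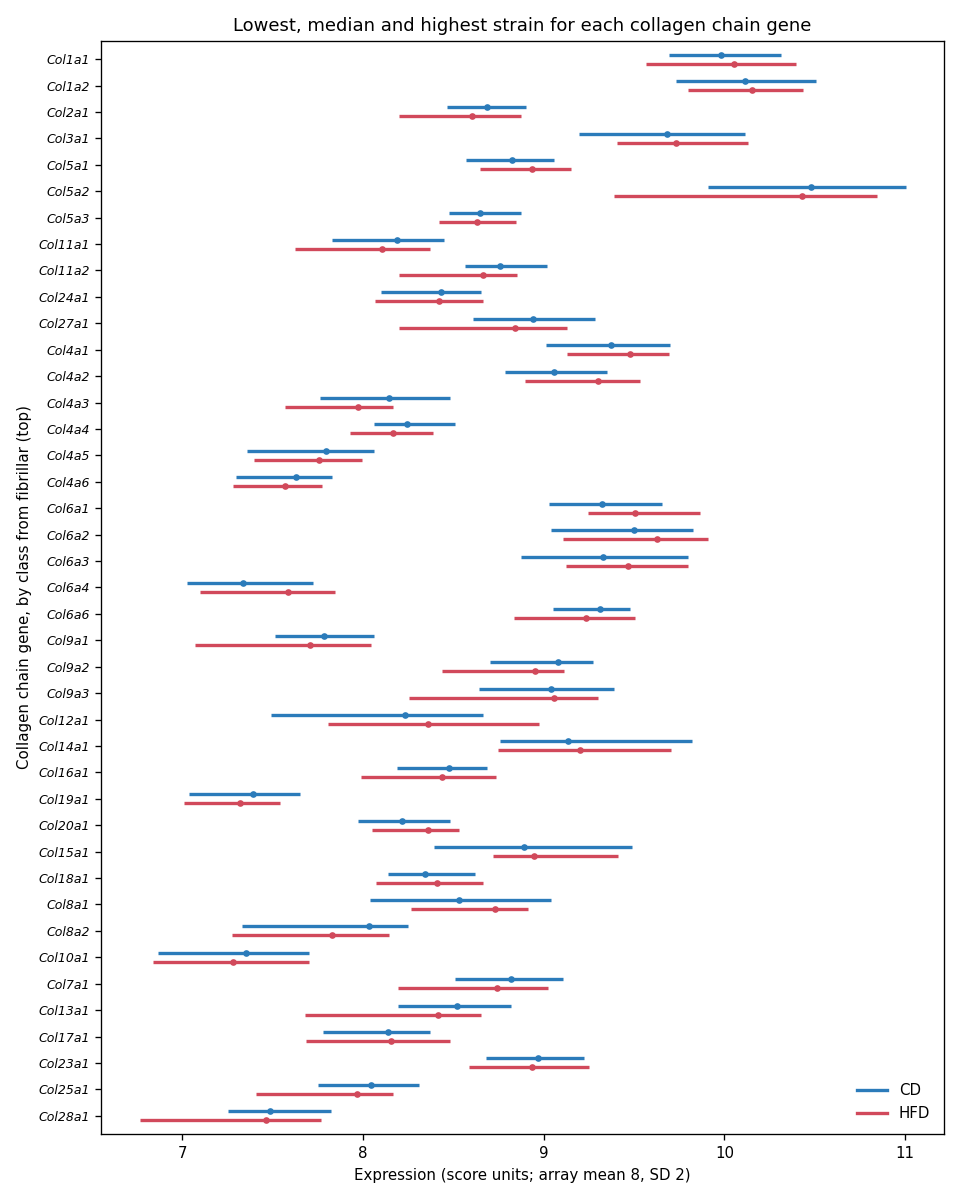
Lowest, median and highest strain of each collagen gene in CD (blue) and HFD (red), with genes ordered by class. Col12a1 and Col5a2 have some of the longest lines, and several cartilage and skin collagens have a longer line to the left in HFD, where BXD79 was the lowest array for 19 genes.

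One strain had the highest mean of the muscle matrix chains on both diets, though in CD by little. The mean over the 12 partner chains was highest in BXD65 in CD, at 9.626, and in HFD, at 9.77. In CD it was nearly matched by BXD69, at 9.624. BXD65 was the highest HFD array for 7 of the 12 and the highest CD array for 4. The lowest means were those of BXD73 in CD, at 9.10, and of BXD61 in HFD, at 9.24. BXD73 was the lowest CD array for 5 of the 12 partner chains and ranked 35 of 37 in HFD. Other strains changed place, since BXD61 ranked 29 of 42 in CD and BXD69 ranked 2 of 42 in CD and 36 of 37 in HFD. These strains were picked by their values, so their ranks are a description.

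With the diets as the replicates of a strain, 5 collagen genes differed between strains (limma F test, 37 strains, adjusted p below 0.05), where 13.6% of all probesets and 21.9% of bright probesets did. They were Col14a1 (adjusted p = 0.00168), Col4a1 (0.00418), Col8a1 (0.00727), Col3a1 (0.024) and Col15a1 (0.0346, limma). The share of the 41 genes was thus no higher than that of all probesets.

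The same genes had the highest correlation between CD and HFD, a measure made from the same arrays. The r across 37 strains was called for 4 collagen genes, where 10.6% of all probesets were called: Col14a1 at 0.573, Col4a1 at 0.565, Col8a1 at 0.516 and Col3a1 at 0.466 (two-sided permutation, adjusted p = 0.00375, 0.00816, 0.0143 and 0.0399 over all probesets). The rho of these genes was 0.537, 0.477, 0.503 and 0.419, and 3 were called, since Col3a1 had an adjusted permutation p of 0.0853 (9.28% of all probesets were called by rho). When the 2 strains of most extreme CD level were left out, the 4 values were 0.472, 0.513, 0.389 and 0.413. Among strains with both arrays in batch 1 (12 strains) r was 0.581, 0.771, 0.882 and 0.512, and among those with both in batch 2 (17 strains) it was 0.559, 0.454, 0.331 and 0.441.

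Col15a1 came next, at r = 0.446 (rho 0.307, permutation, adjusted p = 0.054 and 0.268). Without the 2 farthest strains its r was 0.203, so the relation rests on those strains, and within batch 1 and batch 2 it was 0.740 and -0.065. At the other end were Col1a1 at -0.121, Col11a2 at -0.095 and Col6a6 at -0.053, with adjusted permutation p = 0.744, 0.813 and 0.906. Col1a1 and Col1a2, which followed each other closely within each diet, thus gave -0.121 and 0.0811 between diets. The median r between diets was 0.152 over the collagen genes, beside 0.141 over all probesets and 0.237 over bright probesets, and 32 of 41 collagen genes had an r above 0.

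**Figure D5:**
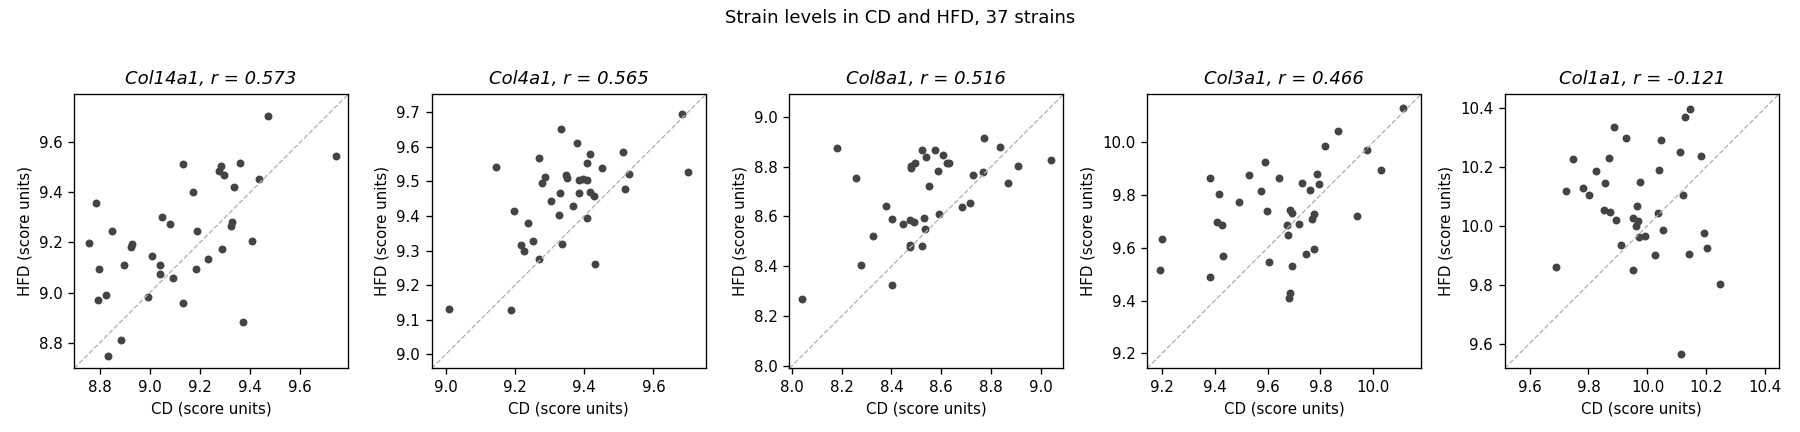
Score in HFD against score in CD for 37 strains, 1 point per strain, for the 4 collagen genes with a called correlation between diets and for Col1a1. The dashed line marks equal scores, and r is printed above each panel after batch means were removed, from 0.573 for Col14a1 to -0.121 for Col1a1.

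Between the parental strains, C57BL/6J and DBA/2J, 0 of 41 collagen genes were called in the strain fit (limma, 1 at an unadjusted p below 0.05), where 1.26% of all probesets were called. The gene at an unadjusted p below 0.05 was Col14a1, for which C57BL/6J minus DBA/2J was -0.40 ± 0.15 (SE, limma, adjusted p = 0.291). Each parent had 1 array per diet, and the fit takes the parents to vary like the other strains. C57BL/6J had the lowest Col14a1 value of the 42 CD arrays, 8.76, and in HFD, at 9.198, it ranked 19 of 37 from the lowest.

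Short promoter motifs were looked for in the RefSeq windows of 34 collagen genes, on both strands. The box TATAAA was found in 5, CCAAT in 13 and GGGCGG in 21, while of all 32851 windows of the same length 13.6%, 37.4% and 35.7% held them. The window of Col1a2 is printed because its transcript followed those of Col1a1, Col12a1 and Col14a1 across CD strains and the window holds 2 of these motifs, in capitals.
Col1a2: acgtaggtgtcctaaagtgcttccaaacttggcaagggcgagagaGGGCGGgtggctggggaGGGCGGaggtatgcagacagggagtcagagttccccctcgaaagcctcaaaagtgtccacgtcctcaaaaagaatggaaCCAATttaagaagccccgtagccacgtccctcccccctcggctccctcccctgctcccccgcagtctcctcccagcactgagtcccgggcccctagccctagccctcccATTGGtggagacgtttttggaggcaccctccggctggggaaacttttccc
The window is chr6:4505368-4505667 on the plus strand. A forward CCAAT begins 109 bases before the annotated start, a reverse CCAAT begins at the start, and GGGCGG begins 205 and 188 bases before it. The Col4a1 and Col4a2 windows printed above hold CCAAT and GGGCGG and no TATAAA.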

How the data were processed

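RNA of 79 quadriceps pools was hybridised to Affymetrix arrays, and the submitters' processing notes name Affymetrix Expression Console. The deposited values are a score per probeset, which the authors scaled to a mean of 8 and an SD of 2 on every array. The log base, background correction and any batch correction were not given in the sources used here, so how the scaling changed single differences is unknown. No array pair was identical, and no value column was left unmapped.

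Groups and strains come from the sample titles. The score was tested as deposited with limma 3.58.1 (lmFit, eBayes) in R 4.3.3, with batch as a term, over all probesets, with Benjamini-Hochberg adjustment at 0.05. Correlations used 100000 permutations in Python 3.11.15 with numpy 2.4.6. Deviations of same-strain arrays correlated with a median of 0.205 (over 0.1 in 33 of 37 pairs). The pairing comes from the strain names in the labels, and the fit with strain as a replicate block is an alternative. The limma fits and the permutation test of correlations were tested on simulated data.

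Full values are given for called genes (at most 10 in each direction), 12 partner chains, the 5 widest strain ranges per diet, the 5 highest and 3 lowest correlations between diets, the 5 genes most like Col1a1, and up to 4 genes per list. The members, lists and tests were chosen with earlier results of these data known. The fit without strain BXD79, the medians with the olfactory mean removed, the slope differences between diets and the Col4a2 minus Col4a1 test were chosen after seeing the data. Number of arrays, not sequencing depth, limits the precision. P-values of the fit with diet and batch measure the spread between pools. Those of the strain and parental tests and of the Col4a2 minus Col4a1 test rest on differences between diets within strains.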

Additional observations from a re-analysis of the deposited data

How the results depend on the processing

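The counts of collagen genes higher and lower in HFD stayed within 1.5 times of 10 and 13 without the batch term, without BXD63 or BXD79, with BXD strains alone, with median centring, with renewed quantile normalization, with the methods' t-test, with limma-trend, without dim probesets and with the mean of all probesets. With strain as a replicate block they were 13 and 11, beside 20.7% and 20% of all probesets in that fit. The exceptions were batch 1 alone (3 higher and 3 lower, with fewer arrays), batch 2 alone (7 and 3) and the olfactory receptor covariate (8 and 2). In batch 1 alone 5.82% and 6.81% of all probesets were called, and in batch 2 alone 12.2% and 12.2%. Col4a2, Col4a3 and Col6a1 kept their calls under all 14 alternatives.

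The count rising with Col1a1 in CD (5) became 0 and 1 in batch 1 and batch 2, 1 without the 2 farthest strains, 9 without dim probesets, 1 with the fibroblast covariate and 8 with the olfactory receptor covariate. In HFD (15) it became 1 in either batch, 29 with the fibroblast covariate and 4 with the olfactory receptor covariate. The count rising with Col4a1 in CD (10) became 0 and 2 in batch 1 and batch 2. In HFD (1) it became 0 in either batch, without BXD63 and without the 2 farthest strains, 3 with quantile normalization, and 2 without dim probesets and with the olfactory receptor covariate. The causes were not tested, except that single batches hold fewer arrays. For the alternative slope runs of this paragraph, the share of all other probesets was calculated only for the 2 covariates on Col1a1, as given above. The median strain range moved to 1.27 in CD and 1.29 in HFD over the 10th to 90th percentile.

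Differences of uncalled genes changed sign as follows. With the olfactory receptor covariate Col5a2 was 0.073, Col10a1 0.033, Col23a1 0.026, Col9a3 0.058, Col24a1 0.044, Col7a1 0.004 and Col4a5 0.054. Col17a1 was -0.015 in batch 1 alone. Col24a1 was 0.002 with strain as a replicate block and 0.006 with median centring. Col4a5 was 0.002 with median centring and 0.003 with quantile normalization. The called gene Col5a1 was -0.061 as the mean of its probesets.

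The counts for strain differences, for correlation between diets and for the parents (0) stayed within 1.5 times of their values in each alternative run. The scaled score, 1 pool per strain and diet, and probesets near the background limit what can be said of dim genes.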
